A study of Mus musculus with 8 samples.

Results

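The mouse mitochondrial genome carries 37 annotated genes, and its rows in a strand-specific gene count table of olaparib-resistant ovarian cancer cells are described here. Members were all rows whose chromosome is M, 37 of the 54146 rows of the table (0.0683%). They were divided by the annotated strand into 28 rows on the plus strand (12 proteins, 14 transfer RNAs and 2 ribosomal RNAs) and 9 rows on the minus strand (the protein gene mt-Nd6 and 8 transfer RNAs). All 37 had the same coordinates in the reference annotation used here.

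RNA was sequenced from ID8-OR cells. ID8 is an established ovarian cancer line from the mouse, and OR marks a version of it that the labels call olaparib-resistant. Every group, controls included, carries that resistance, and the labels do not say whether the cells are 1 clone or a pool. The 4 groups were cells kept for 72 hours in DMSO (the solvent), in olaparib (an inhibitor of the PARP enzymes), in EZM8266 (described by the submitters as an EHMT1/2 inhibitor, blocking methyltransferases of histone H3 lysine 9) or in olaparib and EZM8266 together. Each group had 2 libraries. One library, combination replicate 2, has EZM8267 in its treatment label and was kept in the group its title names. Nothing states that replicates were separate cultures, and the p-values therefore reflect only how far these libraries differ, which may be technical. Library numbers run from 33 to 36 with EZM8266 and from 41 to 44 without it, so any effect of that numbering cannot be told apart from EZM8266.

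Mitochondrial DNA has a heavy and a light strand, and each is transcribed from its own promoter into long RNA that runs around most of the circle. The transfer RNAs are cut out of this RNA and thereby free most of the messenger and ribosomal RNAs. The 28 plus-strand genes are read from the heavy-strand promoter. The light-strand promoter serves mt-Nd6, a subunit of respiratory complex I, and the 8 minus-strand transfer RNAs, and the remainder of its RNA is antisense to the other genes and is normally degraded quickly. Every mitochondrial gene thus has a transcript on its other strand, and both strands together can form double-stranded RNA, which innate immune sensors can detect.

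Which strand a row counts decides how its value is read. The library kit marks strand with dUTP, which puts the first read on the strand opposite to the RNA, whereas counting used strand setting 1, which keeps fragments with a first read in the gene's own orientation. On that reading, a row annotated on the plus strand counts fragments assigned to light-strand promoter RNA, and a row annotated on the minus strand counts fragments assigned to heavy-strand promoter RNA. The reading rests on the kit's chemistry and was not tested on the reads, and each statement here on the direction of an RNA depends on it. By it, the mt-Nd6 row holds RNA read in the direction of mt-Nd5 and mt-Cytb, and the mt-Nd5 row holds RNA read in the direction of mt-Nd6. Strand marking is not complete, so part of a plus-strand row can be leakage from the abundant RNA of the other strand, and that part was not measured for single rows. Below, "row" always means the deposited count of that annotation, not the level of the gene's own transcript.

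The minus-strand genes fit tightly between the plus-strand genes, and the sequences below show the ones on which the results turn, 5′ to 3′ on their own strand, with bases shared with a gene on the other strand in capitals. They come from the GENCODE M21 transcripts of the mm10 assembly. Reads of 150 bases are longer than any transfer RNA, and a transfer RNA row counts every fragment that touches it.
mt-Tq (glutamine transfer RNA, chrM:3772-3842, minus strand): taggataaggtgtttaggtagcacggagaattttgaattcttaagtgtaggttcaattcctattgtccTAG
mt-Ts1 (serine transfer RNA, chrM:6870-6938, minus strand): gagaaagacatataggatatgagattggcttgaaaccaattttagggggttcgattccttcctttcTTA
mt-Te (glutamate transfer RNA, chrM:14071-14139, minus strand): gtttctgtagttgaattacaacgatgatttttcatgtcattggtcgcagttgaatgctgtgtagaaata
mt-Nd6 (last 60 bases, chrM:13552-13611, minus strand): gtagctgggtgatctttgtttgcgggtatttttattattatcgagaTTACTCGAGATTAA
The last 3 bases of mt-Tq lie over mt-Ti, the isoleucine transfer RNA, and those of mt-Ts1 lie over mt-Co1. The last 14 bases of mt-Nd6 lie over the end of mt-Nd5. mt-Te has no capitals: it starts directly after mt-Nd6, with 0 bases between them, and ends 5 bases before mt-Cytb.

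The libraries held 19743299 to 30329847 fragments, and the counts summed to 973382 to 1680974 over all rows. In CPM, the usual unit of counts relative to library size, a floor of 3 counts was 1.78 to 3.08. Sums exceeded the number of assigned fragments by 4.35 to 12.5%, since 1 fragment could count for several rows. DMSO replicate 1 and olaparib replicate 2 stood apart through the Gm10800 row, with 23746 and 22517 counts against 1182 to 4277 elsewhere. A relative measure of fragments counted on the unintended strand, the Rmrp row's part of the sum of Rmrp and its opposite partner Ccdc107, was 1.04 to 1.68%. Markers of the labelled cell type could be judged only through this strand setting: rows of 10 ovarian epithelial markers summed to 89 to 184 counts. Wt1 (13 to 58), Krt19 (14 to 53), Krt18 (10 to 40), Krt8 (6 to 23), Pax8 (3 to 47) and Msln (2 to 9) had counts in every library. Muc16 held 0 to 6, and Krt7, Epcam and Cdh1 were at 0 or 1. The list had 3 rows overlapping on the other strand: the row opposite Krt8 held 196 to 362 counts, and those opposite Krt7 and Pax8 held 0 to 2 each. Rows of 10 markers of leukocytes, endothelium and fibroblasts summed to 51 to 248 counts, nearly all from Col1a1, a fibroblast collagen (42 to 235), and Cd3e, Adgre1 and Pdgfrb were at 0 in all 8 libraries.

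Mitochondrial rows took 3.78% of all counts in combination replicate 1 (Wilson 95% interval 3.75 to 3.82%), the lowest library, and 4.45% in DMSO replicate 1 (4.41 to 4.49%), the highest. Intervals and floors cover counting error only. In a bulk sample, fewer mitochondria or genome copies and less RNA from each cannot be told apart. The 9 minus-strand rows held the larger part, 62.2% (combination replicate 2) to 66.1% (EZM8266 replicate 2) of the mitochondrial counts. Per kilobase of annotated gene the minus-strand rows held 22.2 to 26.2 times the counts of the plus-strand rows. The plus-strand length includes 10 near-empty rows described below, mt-Td to mt-Nd4l (3269 bases, 24 to 53 counts). They raise the ratio, and its value without them was not computed. Both extremes of that ratio came from libraries with EZM8266, and replicates of every group differed by more than the group means did. The minus-to-plus ratio was 24.9 ± 1.13 in DMSO, 25.1 ± 1.27 in olaparib, 24.4 ± 2.56 under EZM8266 and 24.0 ± 2.60 under both compounds (SD, n = 2).

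As shares of all counts, the plus-strand rows held 1.44 ± 0.12% in DMSO, 1.44 ± 0.099% in olaparib, 1.47 ± 0.043% under EZM8266 and 1.46 ± 0.24% under both compounds. The minus-strand rows held 2.67 ± 0.35%, 2.68 ± 0.32%, 2.67 ± 0.36% and 2.58 ± 0.14% in the same order. All 4 group means lay within 1 SD of each other for both strands, and no test was made on these sums over the members. For the minus strand, replicates of a group differed by more than the group means did: 2.92 and 2.43% in DMSO, 2.46 and 2.91% in olaparib, 2.42 and 2.92% under EZM8266, 2.49 and 2.68% under both. The libraries rich in Gm10800 were the higher of their pairs.

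**Figure D1:**
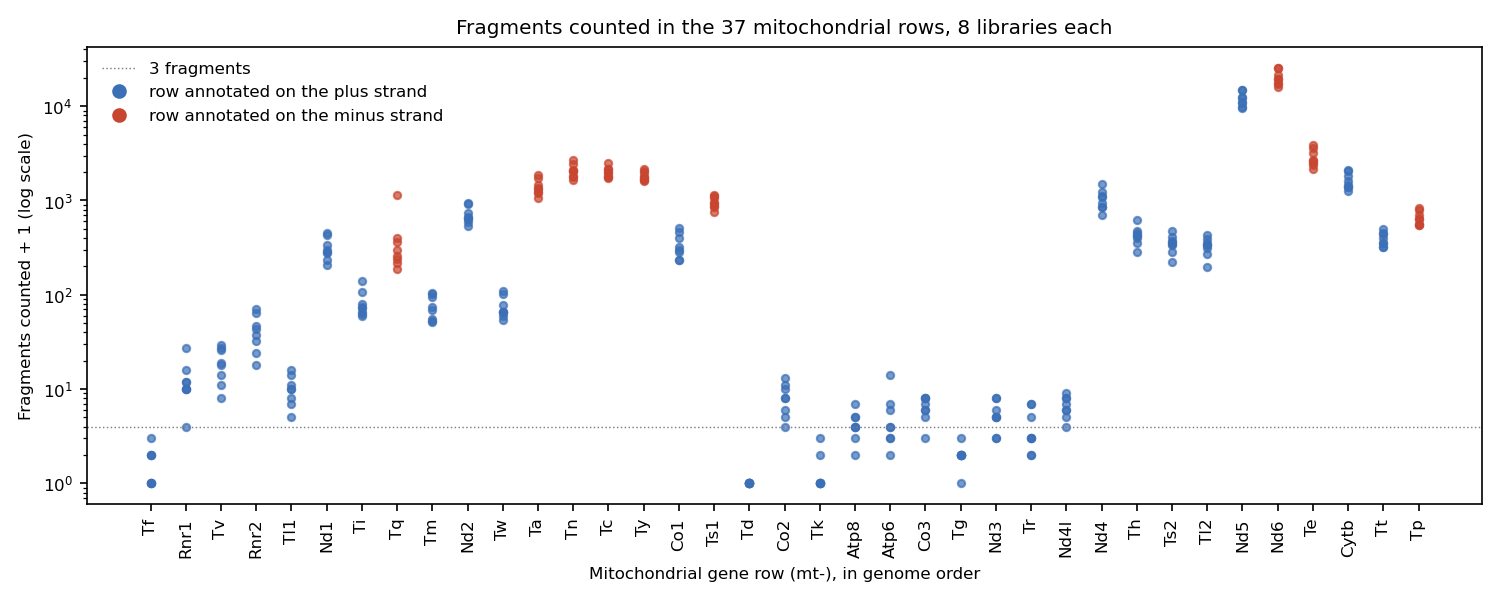
Fragments counted in each of the 37 mitochondrial rows (log axis, 1 added), in genome order, with 1 point for each of the 8 libraries, blue for plus-strand rows and red for minus-strand rows, and a dotted line at 3 fragments. Every minus-strand row stands above its plus-strand neighbours, mt-Nd6 is the highest row, and the 10 plus-strand rows from mt-Td to mt-Nd4l lie at 0 to 13 fragments.

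Most mitochondrial counts came from 1 region, mt-Nd5, mt-Nd6 and mt-Te. These 3 rows together held 69.2 to 71.2% of the mitochondrial counts of a library. The mt-Nd6 row, which counts RNA complementary to the mt-Nd6 message, held 19248 and 25323 in DMSO, 25555 and 21573 in olaparib, 19505 and 17742 under EZM8266 and 17239 and 15944 under both compounds. It ranked 4 among all 54146 rows of the table by summed counts. The mt-Nd5 row, over a complex I gene and read in the direction of mt-Nd6, held 11011 and 14826 in DMSO, 14879 and 12246 in olaparib, 12422 and 9833 under EZM8266 and 9653 and 10720 under both compounds, at rank 8. For both rows the highest counts were in DMSO replicate 2 and olaparib replicate 1, the libraries with the largest totals. The mt-Te row next to mt-Nd6 held 2708 and 3855 in DMSO, 3599 and 3215 in olaparib, 2592 and 2492 under EZM8266 and 2165 and 2390 under both compounds. Fragments that cross the border of mt-Nd6 and mt-Te are counted in both.

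Relative to gene length, the mt-Nd6 row held 29026 to 35143 CPM per kilobase and the mt-Nd5 row 4794 to 6038 CPM per kilobase. The genes meet at their 3′ ends on opposite strands, so the pair sets both directions of transcription side by side in adjoining stretches. The ratio of the per-kilobase levels, mt-Nd6 row over mt-Nd5 row, was 6.14 and 6.003 in DMSO, 6.04 and 6.19 in olaparib, 5.52 and 6.34 under EZM8266 and 6.28 and 5.23 under both compounds. Replicates without EZM8266 lay close together, and the libraries with EZM8266 spread to both sides of them. As background, the mt-Nd5 message is known to have a 3′ extension that runs through the complement of mt-Nd6.

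Also high were the 4 adjoining minus-strand transfer RNA rows mt-Ta (alanine), mt-Tn (asparagine), mt-Tc (cysteine) and mt-Ty (tyrosine), which lie between mt-Tw and mt-Co1 at chrM:5018-5326. They lie 1 to 2 bases from their neighbours, so they share fragments, except for a gap of 32 bases between mt-Tn and mt-Tc that holds the origin of light-strand replication. The 4 rows summed to 6071 to 9241 counts. The mt-Ta row held 1344 and 1865 in DMSO, 1749 and 1323 in olaparib, 1453 and 1216 under EZM8266 and 1202 and 1066 under both compounds. The mt-Tn row held 2031 and 2705 in DMSO, 2445 and 2055 in olaparib, 2106 and 1761 under EZM8266 and 1816 and 1663 under both compounds. For mt-Tc the counts were 1968 and 2508 in DMSO, 2156 and 2137 in olaparib, 2021 and 1762 under EZM8266 and 1821 and 1719 under both compounds. DMSO replicate 2, the deepest library, was the highest for these 3 rows, as it was for mt-Ty. The mt-Ty row held 1776 and 2163 in DMSO, 1939 and 2043 in olaparib, 1780 and 1679 under EZM8266 and 1648 and 1623 under both compounds.

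The remaining minus-strand transfer RNAs were isolated between plus-strand genes. Counts of mt-Ts1, after mt-Co1, were 852 and 1153 in DMSO, 1127 and 940 in olaparib, 878 and 1061 under EZM8266 and 759 and 932 under both compounds. Counts of mt-Tp, the proline transfer RNA after mt-Cytb, were 632 and 838 in DMSO, 792 and 703 in olaparib, 640 and 552 under EZM8266 and 558 and 553 under both compounds. After scaling, the libraries of each treatment overlapped those of DMSO for both rows. The mt-Tq row, in the cluster with mt-Ti and mt-Tm, held 241 and 398 in DMSO, 360 and 1147 in olaparib, 298 and 187 under EZM8266 and 254 and 215 under both compounds. Only olaparib replicate 2 is high there, and its 1147 counts have no counterpart in olaparib replicate 1.

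Among the plus-strand rows, mt-Cytb, the complex III subunit, and mt-Nd4, a complex I subunit, followed mt-Nd5. The mt-Cytb row held 1470 and 2128 in DMSO, 2031 and 1609 in olaparib, 1810 and 1246 under EZM8266 and 1382 and 1379 under both compounds. The mt-Nd4 row held 846 and 1487 in DMSO, 1220 and 1075 in olaparib, 1117 and 858 under EZM8266 and 705 and 936 under both compounds. Per kilobase these were 1094 to 1238 CPM for mt-Cytb and 463 to 698 CPM for mt-Nd4, against at least 4794 for mt-Nd5. The transfer RNA rows around them, mt-Th (histidine), mt-Ts2 (serine), mt-Tl2 (leucine) and mt-Tt (threonine), held 195 to 625 counts. On the other side of the genome, mt-Nd2, a complex I gene, held 667 and 926 in DMSO, 939 and 647 in olaparib, 738 and 532 under EZM8266 and 634 and 588 under both compounds. Its neighbour mt-Nd1, also of complex I, held 286 and 456 in DMSO, 433 and 274 in olaparib, 336 and 207 under EZM8266 and 296 and 232 under both compounds. mt-Co1, the catalytic subunit of complex IV, held 301 and 516 in DMSO, 457 and 323 in olaparib, 397 and 234 under EZM8266 and 283 and 234 under both compounds. After TMM scaling, both EZM8266 libraries lay below both DMSO libraries for mt-Nd1 (254 and 206 against 280.1 and 282 CPM) and mt-Nd2 (558 and 529 against 653 and 572 CPM), while the combination overlapped DMSO for both. For mt-Co1 it was the combination that lay below DMSO (285 and 228 against 295 and 319 CPM). Pairs of libraries often separate in this way. For EZM8266 against DMSO, 7 of 26 tested members lay lower without overlap (mt-Rnr1, mt-Rnr2, mt-Nd1, mt-Ti, mt-Tq, mt-Nd2 and mt-Tw), beside 15.6% of all tested rows, and 1 lay higher (mt-Tl2), beside 16.2%. For the combination, 2 lay lower (mt-Co1 and mt-Te), beside 18.8%, and 1 higher (mt-Tv), beside 17.1%. For olaparib, 1 lay lower (mt-Tl1), beside 15.6%, and 2 higher (mt-Tq and mt-Tt), beside 15.1%. The log2 fold changes were -0.28 ± 0.18 for mt-Nd1 and -0.17 ± 0.14 for mt-Nd2 with EZM8266, and -0.26 ± 0.17 for mt-Co1 in the combination (adjusted p 0.89, 0.91 and 0.97 in edgeR). The mt-Ti, mt-Tm (methionine) and mt-Tw (tryptophan) rows beside them held 51 to 139 counts.

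The ribosomal RNA rows were low in every library. By the strand reading above they count RNA complementary to the ribosomal RNAs. How much of these counts is leakage from the ribosomal RNAs themselves was not measured. The RNA had been depleted of ribosomal RNA before library preparation, and whether that bears on these rows was not tested. mt-Rnr1, the small ribosomal RNA, held 9 and 15 in DMSO, 26 and 11 in olaparib, 11 and 3 under EZM8266 and 9 and 9 under both compounds. mt-Rnr2, the large ribosomal RNA, held 36 and 63 in DMSO, 69 and 31 in olaparib, 42 and 17 under EZM8266 and 46 and 23 under both compounds. The 5 rows from mt-Tf to mt-Tl1 summed to 44 to 129 counts, and mt-Tf, the phenylalanine transfer RNA, had 0 to 2 counts, below the floor in all 8 libraries.

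A stretch of 10 plus-strand rows, from mt-Td to mt-Nd4l (chrM:6942-10173), was close to empty. The 10 rows together held 24 to 53 counts in a library, 19.6 to 43.9 CPM, whereas the 7 rows that follow, mt-Nd4 to mt-Tt, held 11558 to 14932 CPM. mt-Td, the aspartate transfer RNA, had 0 counts in all 8 libraries. The mt-Co2 row, for a subunit of complex IV, held 4 and 7 in DMSO, 12 and 9 in olaparib, 10 and 5 under EZM8266 and 3 and 7 under both compounds. Another complex IV subunit, mt-Co3, held 6 and 7 in DMSO, 7 and 5 in olaparib, 4 and 2 under EZM8266 and 5 and 7 under both compounds. Both are at a few fragments throughout. The mt-Atp8 row, for an ATP synthase subunit, held 1 and 3 in DMSO, 3 and 6 in olaparib, 4 and 2 under EZM8266 and 4 and 3 under both compounds. The mt-Atp6 row, for the ATP synthase subunit that overlaps it by 43 bases, held 1 and 2 in DMSO, 6 and 13 in olaparib, 3 and 2 under EZM8266 and 3 and 5 under both compounds. The 13 counts of mt-Atp6 were in olaparib replicate 2, the next highest value was 6, and the row did not pass the filter on low counts. For mt-Nd3, of complex I, the counts were 2 and 4 in DMSO, 5 and 7 in olaparib, 4 and 7 under EZM8266 and 4 and 2 under both compounds. For mt-Nd4l, also of complex I, they were 7 and 7 in DMSO, 4 and 6 in olaparib, 5 and 8 under EZM8266 and 3 and 5 under both compounds. For mt-Atp6 the 4 libraries with olaparib lay above the 4 without it after TMM scaling, at 3.02 to 10.6 against 0.98 to 2.27 CPM. Its libraries with and without EZM8266 overlapped. The other members among the 11 below the filter overlapped for both compounds. The share of all rows below the filter that separate in this way was not computed. Among all tested rows, 0.847% lay higher in every olaparib library. With no filter on low counts, the log2 fold change of olaparib over 4 libraries against 4 was 1.72 ± 0.63 for mt-Atp6, which was not called (unadjusted p 0.0065, adjusted p 0.9999 in edgeR). All 6 protein rows held 1 to 13 counts, near the floor of 3, so that small differences between treatments were not detectable.

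This empty stretch lies within the part of the mitochondrial genome that has a near-identical annotated copy in the nucleus, on chromosome 1 (chr1:24611535-24616197, mm10, minus strand). BLAST of the member transcripts against all annotated transcripts gave 7 copy genes there, in the order of the mitochondrial genes. mt-Co2 (Gm28661), mt-Atp6 (Gm10925), mt-Co3 (Gm28437) and mt-Nd4l (Gm10222) were 100% identical over at least 98.99% of the gene. mt-Nd3 (Gm28438) was 99.71% identical, with the substitution T3C, counted from the first base of the mitochondrial gene. The first 876 bases of mt-Nd4 (Gm28439) were 100% identical, and the last 31.3% of mt-Co1 (Gm29216) differed by A1066T. Copies of protein genes on other chromosomes had at least 16 mismatches, and a copy of the first 36 bases of mt-Tt on chromosome 5 (Gm43841) had 1. The first 90 aligned bases of a gene without mismatches and of one with mismatches (in capitals) to its copy show the contrast.
mt-Co3 (chrM:8607-8696, plus strand): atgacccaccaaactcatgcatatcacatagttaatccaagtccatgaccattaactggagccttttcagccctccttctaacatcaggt
Gm28437 (chr1:24613882-24613971, minus strand): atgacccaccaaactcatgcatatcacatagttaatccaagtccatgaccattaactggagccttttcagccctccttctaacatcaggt
mt-Cytb (chrM:14146-14235, plus strand): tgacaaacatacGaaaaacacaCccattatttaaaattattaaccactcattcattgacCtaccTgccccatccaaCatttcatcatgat
Gm11410 (chr4:80003990-80004079, plus strand): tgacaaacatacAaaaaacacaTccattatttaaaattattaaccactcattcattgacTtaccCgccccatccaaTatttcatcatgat
In this window mt-Co3 cannot be told from its copy, while mt-Cytb differs from its copy at 5 positions.

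Protein rows with such a copy and those without one stood at different levels. The 5 protein rows with a copy at least 99% identical over at least 95% of the gene had medians of 3.70 to 15.4 CPM per kilobase. Of the other 8 protein rows, 7 had medians of 178 to 31005 CPM per kilobase, the lowest being mt-Co1. The exception was mt-Atp8 with 12.6, which lies inside the copied stretch, where sequence outside annotated transcripts was not searched. No annotated copy of it reached 90% identity over 30% of the gene. mt-Nd1 also had no such copy and stood at 276 CPM per kilobase. mt-Nd4, with an identical copy of 63.6% of its length, stood at 633 CPM per kilobase. These are medians over the 8 libraries, set out in the plot of level against copy identity, and they are a description across 13 genes that share libraries and fragments.

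**Figure D2:**
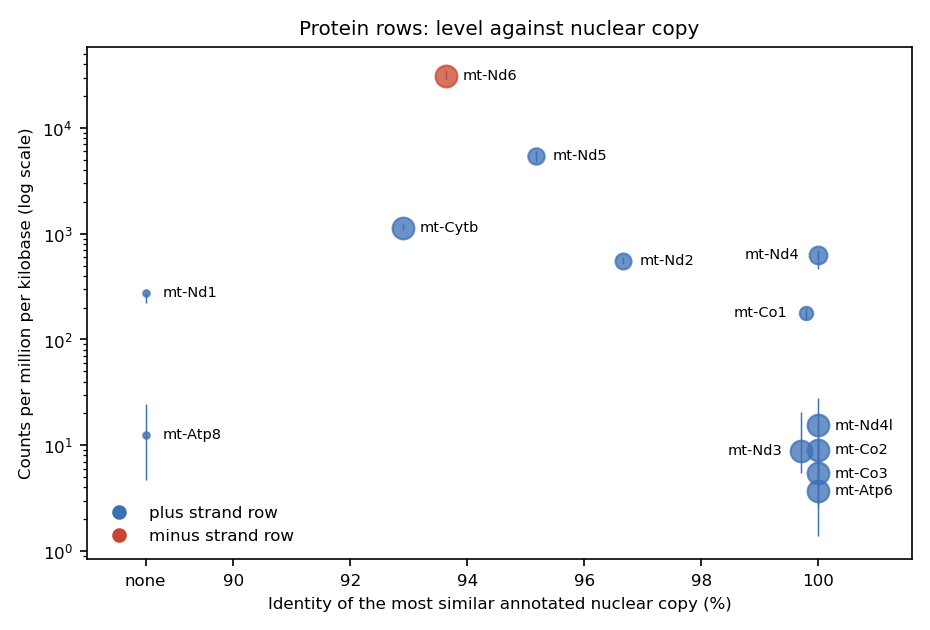
Median level of the 13 protein rows (CPM per kilobase, log axis, with the range over 8 libraries as a line) against the identity of the most similar annotated nuclear copy. Point size grows with the share of the gene that the copy covers. The mark "none" is for genes with no annotated copy of at least 90% identity over 30% of the gene. The 5 rows at the lower right, mt-Nd4l, mt-Nd3, mt-Co2, mt-Co3 and mt-Atp6, have copies over nearly their whole length and lie between 3.70 and 15.4.

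The rows of the 7 copy genes on chromosome 1 held 395 to 768 counts together. Most were in Gm28438 (212 to 474 counts) and Gm10222 (127 to 227), followed by Gm28437 (32 to 65) and Gm28439 (14 to 30). Gm28661 and Gm10925 held 1 to 7 counts and Gm29216 0 to 2. No row annotated on the other strand overlaps these 7 genes by 50 bases or more of exon. The alignment files counted carry the word uniq in their names, per the file headers. Reads that fit both places equally well would have no unique position. Whether such reads bear on the low counts of the stretch was not tested.

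Of the 37 rows, 26 passed the filter on low counts, 17 of 28 plus-strand rows and all 9 minus-strand rows. The 11 that failed were mt-Tf and the 10 rows of the stretch with the chromosome 1 copy. The 26 rows were tested together with all 6379 rows that passed, in 1 edgeR quasi-likelihood fit. No member was called at an adjusted p under 0.05 in any of the 8 comparisons made, and DESeq2 called none either.

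For olaparib against DMSO 0 of the 26 rows were called, beside 0% of all tested rows, and 1 member had an unadjusted p under 0.05 (mt-Tq). For EZM8266 against DMSO the count was 0, beside 0.204% of all rows, with 0 members under 0.05 unadjusted. The combination against DMSO gave 0, beside 0.219%, again with 0 members under 0.05 unadjusted. Against olaparib the combination gave 0 calls (0.0941% of all rows, 1 member under 0.05 unadjusted, mt-Tq), and against EZM8266 also 0 (0% of all rows, 1 member under 0.05 unadjusted, mt-Tv). The interaction of the compounds was called in 0 members (0% of all rows, 0 members under 0.05 unadjusted). With the 4 libraries that had a compound set against the 4 that had not, EZM8266 gave 0 calls among members (0.658% of all rows, 2 members under 0.05 unadjusted, mt-Tq and mt-Te), and olaparib 0 calls (0% of all rows, 1 member under 0.05 unadjusted, mt-Tq). DESeq2, which was run on all rows, had 2 members under 0.05 unadjusted for olaparib against DMSO (mt-Tq and mt-Atp6), 1 for the combination against olaparib and 0 in the other 6 comparisons.

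The fitted differences were small for most rows. For EZM8266 over 4 libraries against 4, the median log2 fold change was -0.08 over the 9 minus-strand rows (2 above 0, 7 below) and -0.06 over the 17 plus-strand rows (5 above 0, 12 below), beside -0.02 over all tested rows. For olaparib in the same layout the medians were 0.04 over minus-strand rows (7 above 0, 2 below) and 0.07 over plus-strand rows (10 above 0, 7 below), beside -0.01 over all rows. Median standard errors were 0.093 on the minus strand and 0.15 on the plus strand. Neighbouring rows share fragments, so these counts are a description.

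Single comparisons with DMSO, which share the DMSO libraries, gave minus-strand medians of 0.02 for olaparib, -0.10 for EZM8266 and -0.05 for the combination. On the plus strand the medians were 0.04, -0.17 and -0.02. None of the 26 rows had all 4 libraries of one kind beyond all 4 of the other, for either compound. Over all tested rows, 2.02% were lower and 3.32% higher in every EZM8266 library than in every library without it, and 0.799% lower and 0.847% higher for olaparib.

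**Figure D3:**
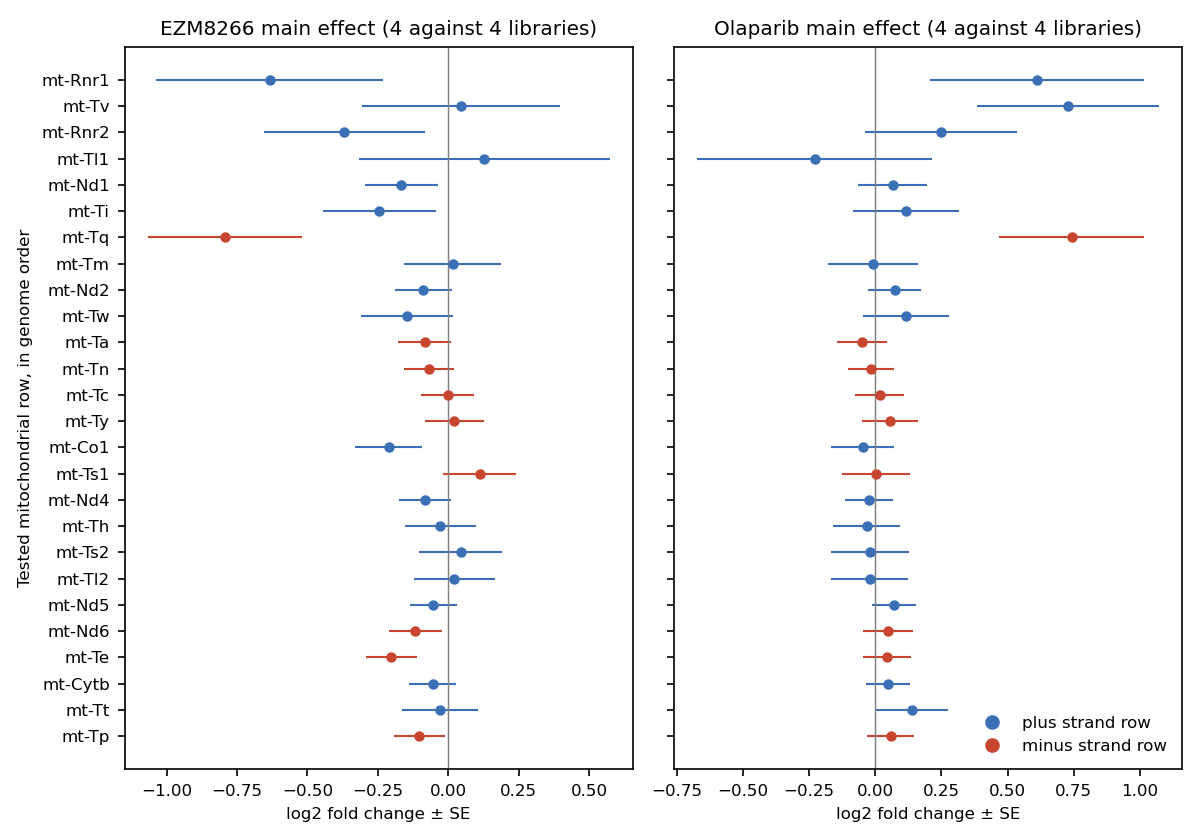
Log2 fold changes with standard error of the 26 tested mitochondrial rows, in genome order, for EZM8266 (left) and olaparib (right), each 4 libraries against 4, blue for plus-strand and red for minus-strand rows. Most rows lie within 0.25 of 0, mt-Tq is at -0.79 for EZM8266 and 0.74 for olaparib, and the wide bars at the top belong to rows with few counts.

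For the rows around mt-Nd6 the groups lay close to each other. TMM-scaled levels of the mt-Nd6 row were 17244 ± 2272 in DMSO, 18172 ± 889 in olaparib, 16202 ± 2044 under EZM8266 and 16452 ± 1289.6 under both compounds CPM (SD, n = 2). EZM8266, 4 libraries against 4, gave a log2 fold change of -0.12 ± 0.09 (SE) for this row, with a 95% interval of -0.32 to 0.09 and an adjusted p of 0.89 in edgeR. Olaparib gave 0.05 ± 0.09, with an interval of -0.15 to 0.25. The mt-Nd5 row read 9969.5 ± 1151 in DMSO, 10452 ± 699 in olaparib, 9589 ± 270.2 under EZM8266 and 10086 ± 513 under both compounds CPM, and its log2 fold change with EZM8266 was -0.05 ± 0.08 (interval -0.24 to 0.13). These intervals limit how large a change of either row could be in these libraries, and they do not show that the groups are alike.

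The mt-Te row, on the same side of mt-Nd6 as mt-Cytb, had a lower fitted value with EZM8266 that did not pass the threshold. Its scaled level was 2516 ± 192 in DMSO, 2631 ± 23.6 in olaparib, 2219.9 ± 366 under EZM8266 and 2255 ± 105 under both compounds CPM. Libraries without EZM8266 ranged from 2381 to 2652 and those with it from 1961 to 2479, so that they overlapped. The log2 fold change was -0.20 ± 0.09, with an interval of -0.40 to -0.0057 and an adjusted p of 0.70 (unadjusted 0.045) in edgeR. It depended on the EZM8266 libraries, with -0.13 without EZM8266 replicate 1 and -0.29 without EZM8266 replicate 2 (adjusted p 0.40 and 0.16). With the Rmrp measure as a covariate it was -0.29 ± 0.07 with an adjusted p of 0.026, in a fit that called 1.33% of all rows, and with no scaling beyond the library total it was -0.12 ± 0.14 (adjusted p 0.98).

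**Figure D4:**
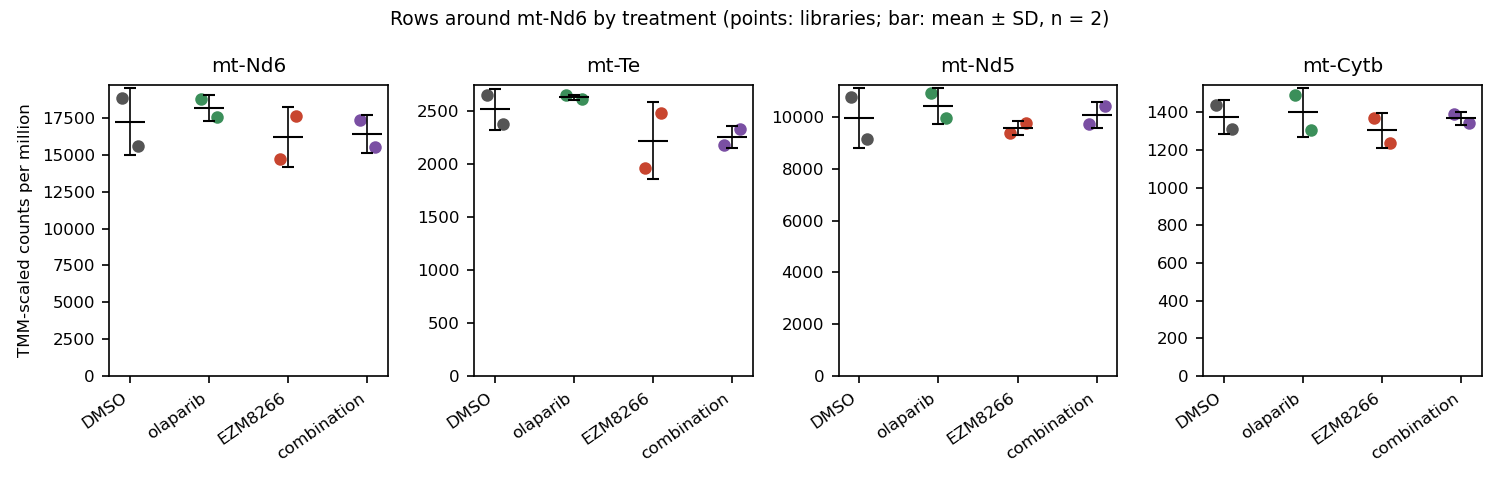
TMM-scaled CPM (linear axis from 0) of the mt-Nd6, mt-Te, mt-Nd5 and mt-Cytb rows by treatment, with 1 point for each library and the mean with SD (n = 2). For mt-Te the libraries without EZM8266 lie at 2381 to 2652 and those with it at 1961 to 2479.

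The mt-Tq row had the largest fitted change of the 26 tested members for olaparib against DMSO, and 1 library carried the difference. Its scaled level was 236 and 246 CPM in DMSO, 265 and 933 CPM in olaparib, 225 and 186 CPM under EZM8266 and 256 and 210 CPM under both compounds. Olaparib replicate 2 alone is high, and the other 7 libraries lie between 186 and 265 CPM. Its 1147 counts were 2.15% of the mitochondrial counts of that library, against 0.43 to 0.63% in the others. The log2 fold change of olaparib over DMSO was 1.31 ± 0.38 (unadjusted p 0.0046, adjusted p 0.999 in edgeR), and without olaparib replicate 2 it was 0.15 ± 0.19 (adjusted p 0.9997). Without olaparib replicate 1, which leaves the high library alone in its group and assumes that it varies like the others, it was 1.94 ± 0.18 and was called (adjusted p 0.00058, in a fit that called 0.0138% of all rows). The same library entered the EZM8266 comparison of 4 libraries against 4, where mt-Tq stood at -0.79 ± 0.27 (adjusted p 0.46), and at -0.21 ± 0.13 without olaparib replicate 2.

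The neighbours of mt-Tq did not share the high value, but they are annotated on the other strand and count fragments of the opposite direction. They therefore cannot show how far the high value extends along the genome. In olaparib replicate 2 the mt-Ti row, which overlaps mt-Tq by 3 bases on the other strand, stood at 50.4 CPM, the lowest of the 8 libraries. The mt-Tm row, 2 bases beyond mt-Tq, stood at 60.2 CPM, within the 49.7 to 77.9 CPM of the other libraries. No other minus-strand transfer RNA row was highest in that library. For mt-Ta, mt-Tn, mt-Tc and mt-Ty it held 1076, 1671, 1738 and 1661 CPM. The libraries rich in Gm10800, olaparib replicate 2 and DMSO replicate 1, held 933 and 236 CPM of mt-Tq. Whether the Gm10800 level or any other feature of olaparib replicate 2 bears on its mt-Tq value was not tested.

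**Figure D5:**
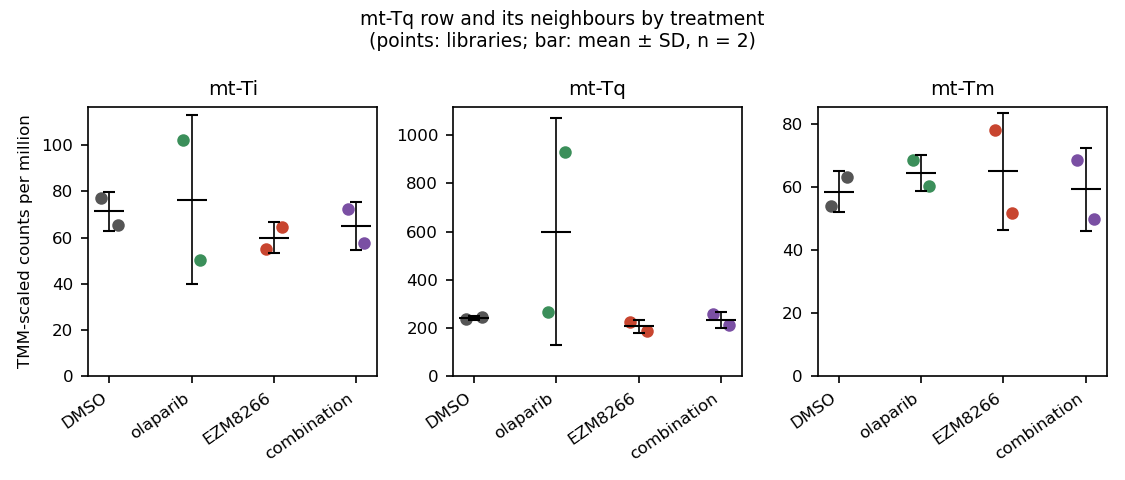
TMM-scaled CPM (linear axes from 0, each with its own scale) of the mt-Ti, mt-Tq and mt-Tm rows by treatment, with 1 point for each library and the mean with SD (n = 2). Olaparib replicate 2 stands at 933 in the mt-Tq panel and at 50.4 and 60.2 in the others.

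The low rows gave wide intervals. mt-Tv, the valine transfer RNA between the ribosomal RNAs, differed between the combination and EZM8266 by 1.12 ± 0.50 (unadjusted p 0.043, adjusted p 0.99999 in edgeR) on 7 to 28 counts. mt-Rnr1 and mt-Rnr2 had log2 fold changes of -0.63 ± 0.40 and -0.37 ± 0.29 for EZM8266 over 4 libraries against 4 (adjusted p 0.86 and 0.89). Their 95% intervals, -1.51 to 0.24 and -0.99 to 0.25, show how little these counts can resolve.

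Lists of nuclear genes linked to mitochondrial function were read from the same table. Own rows are the rows of the genes. Opposite rows, read because of the strand setting, have exons that overlap theirs on the other strand by at least 50 bases. No row of 5 such lists was called in any of the 8 comparisons, in either direction. For EZM8266, 4 libraries against 4, transcription and RNA processing genes had medians of -0.13 over 12 tested own rows and -0.07 over 12 opposite rows. Mitochondrial DNA replication genes had 0.18 over 4 own rows and 0.05 over 7 opposite rows. Polg, the mitochondrial DNA polymerase, was at 0.19 ± 0.11 in its own row. Nuclear complex I subunits had -0.20 over 14 own rows and 0.02 over 10 opposite rows, and complex III to V subunits had -0.05 over 21 and -0.06 over 9. For olaparib in the same layout, the own-row and opposite-row medians were -0.01 and -0.05 for transcription and RNA processing. They were -0.05 and 0.06 for replication, -0.19 and -0.03 for complex I, and -0.11 and -0.03 for complexes III to V.

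A list of 9 genes linked to double-stranded RNA sensing was also read (Ifih1, Ddx58, Mavs, Eif2ak2, Tlr3, Bax, Bak1, Adar and Zbp1). RNA from both mitochondrial strands is a known source of double-stranded RNA. For EZM8266, 4 libraries against 4, the list had 3 tested own rows with a median of -0.15 and 4 tested opposite rows with a median of 0.17, all 4 above 0. For olaparib in the same layout the medians were 0.03 over own rows (2 above 0) and 0.18 over opposite rows (3 above 0). The highest value was that of the row opposite Adar, an RNA-editing enzyme (Chrnb2 row, 156 to 290 counts), with 0.27 ± 0.10 for EZM8266 over 4 libraries against 4 (adjusted p 0.49 in edgeR). In the combination against DMSO the Chrnb2 row stood at 0.62 ± 0.14 with an adjusted p of 0.14. The row opposite Eif2ak2, the kinase PKR (Gm26637 row, 119 to 214 counts), was at 0.02 ± 0.11.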

How the data were processed

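Ribosome-depleted RNA was made into libraries with the KAPA mRNA HyperPrep kit, per the labels' protocols. That this kit marks strand with dUTP is general knowledge of it. The submitters' processing notes name the build mm10, HISAT2 2.1.0, Subread 1.6.2, MultiQC 1.7 and FastQC 0.11.8. The deposited values are raw fragment counts in whole numbers. Per the file headers, featureCounts used exons of GENCODE M18, strand setting 1, and counted a fragment for every gene it overlaps. All per-sample columns were used.

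From these counts, CPM, CPM per kilobase of exon and Wilson intervals were computed. Tests used edgeR 4.0.16 (R 4.3.3): quasi-likelihood F test, TMM scaling, filterByExpr (minimum count 10, minimum total 15), 8 libraries in 1 fit of 4 group means, Benjamini-Hochberg adjustment over 6379 rows, checked on simulated counts. Copies were found with BLAST 2.17.0 in GENCODE M21 transcripts (at least 90% identity over 30% of the gene).

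Members, the rule for named rows (all minus-strand, ribosomal RNA and protein rows, plus rows called under any setting) and the lists were chosen with earlier results of these data known. Alternatives were DESeq2 1.42.0, other scalings and filters, the compared groups alone, a replicate block, libraries left out and a strand-leakage covariate.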

Additional observations from a re-analysis of the deposited data

How the results depend on the processing

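No mitochondrial row was called in any of the 8 comparisons, and this held with DESeq2, RLE scaling, no scaling, scaling without mitochondrial rows, a filter of 1 CPM in 4 libraries, and with both libraries rich in Gm10800 left out. With only the compared groups in the fit, which was run for the 5 comparisons of pairs of groups, 0 were called. With no filter on low counts, 1 row, mt-Tq, was called for olaparib against DMSO (adjusted p 1.05e-10), the combination against olaparib (7.36e-12), the interaction (0.0077) and the EZM8266 and olaparib effects over 4 libraries against 4 (2.43e-07 and 8.75e-06), beside 0.0287, 0.151, 0.0251, 0.298 and 0.0323% of all rows tested. Leaving out 1 library at a time gave 0 to 1 rows in the same 5 comparisons, the 1 being mt-Tq without olaparib replicate 1 (beside 0.0138 to 0.344% of all rows), and 0 to 0 in the other 3. The strand-leakage covariate gave 1 row for the combination against olaparib (mt-Tq, adjusted p 0.032) and 1 for the EZM8266 effect (mt-Te, 0.026), beside 0.627 and 1.33% of all rows, which was 40 and 85 rows against 6 and 42 without it. The causes were not tested.

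With a replicate block 0 rows were called in each comparison. For each of 6379 tested rows, the deviation of replicate 1 from its group mean was taken on the log CPM scale. Between groups, these deviations correlated at -0.31 (DMSO with olaparib), -0.32 (DMSO with EZM8266) and -0.15 (DMSO with the combination). Among olaparib, EZM8266 and the combination they correlated at 0.22 to 0.29. Equal numbers thus went together in those groups and ran opposite in DMSO. A block by the given numbers does not capture that structure, and whether it marks a shared batch was not tested. A block with the DMSO numbers crossed, added after seeing the data, called 1 row, mt-Tq, for olaparib against DMSO, the combination against olaparib and the EZM8266 effect (adjusted p 0.049, 0.0020 and 0.0081), beside 0.0157, 0.737 and 2.08% of all rows.

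The plus-strand share of all counts, 1.45% over the group means, was 1.31% without transfer RNA rows, 2.37% with the 20 most abundant other rows taken from the total, and 1.41 to 1.49% without 1 library. The minus-strand share, 2.65%, was 1.65%, 4.33% and 2.59 to 2.72%. The minus-to-plus ratio per kilobase, 24.6, was 32.7 without transfer RNA rows, 20.3 without ribosomal RNA rows and 24.1 to 25.1 without 1 library. Of 3870 values of single rows under 19 other settings, 15 were called and none of these changed direction. Another 120 values, not called, had the sign opposite to the main fit and lay at least 1 SE from it. Pairs of libraries and rows under 30 counts limit what could be detected.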
